A study of Mus musculus with 12 samples.

Results

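The 10 genes described here encode basic leucine zipper (bZIP) transcription factors that make up AP-1 or pair with it: Fos, Fosb, Fosl1 and Fosl2 of the FOS group, Jun, Junb and Jund of the JUN group, and Atf3, Batf and Batf3. They were chosen by symbol, 10 of the 43131 genes in the table of raw read counts, and each gene was represented by its transcript with the highest total over the libraries. The study compared bone marrow-derived macrophages (BMDMs) of tlr4f/f mice, whose tlr4 is floxed but intact, with those of tlr4f/f-lysM-cre mice, left unstimulated or exposed to LPS at 1 µg/mL over 6 h, to find how macrophage TLR4 shapes the response to LPS. Cells of all 4 groups were grown from bone marrow with M-CSF at 50 ng/mL over 7 days, and all carry the floxed alleles. Each group had 3 libraries, which makes 12. The lysM-cre allele produces Cre from the lysozyme M gene (Lyz2), which is active in macrophages and other myeloid cells, so floxed tlr4 is lost only in cells that have made Cre. The labels do not say whether the 3 libraries of a group came from separate mice or cultures, so p-values measure the spread between these libraries, which may be technical.

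AP-1 is a dimer. FOS proteins bind DNA only when paired with a JUN protein, JUN proteins can also pair with each other, and ATF3, BATF and BATF3 pair with JUN proteins and alter which genes the dimer serves. In macrophages, TLR4 signals through MAPK cascades and NF-kB, which switch on many of these genes within the first hour and shut some of them off again, so a library taken hours after LPS shows a late state. BATF proteins lack a transactivation domain and bind with IRF4 or IRF8, and ATF3 is known as a stress-induced brake on inflammatory genes.

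Each column heading of the table joins a sign for LPS (LPS- or LPS+) to a genotype, and the 4 groups are named here by these headings. Over genes the libraries held 33577087 to 56445268 counts. Tlr4, the targeted gene, had a mean of 115 ± 35.3 CPM (counts scaled to the depth of the library with edgeR's TMM factors; SD, n = 3) in LPS- tlr4f/f, 110 ± 12.5 in LPS- tlr4f/f-lysM-cre, 27.7 ± 3.40 in LPS+ tlr4f/f and 25.6 ± 1.64 in LPS+ tlr4f/f-lysM-cre. It thus split the libraries by the LPS heading and not by the genotype heading, and Lyz2, the gene that carries Cre, did the same, with 5950.3 to 23264 CPM in the 6 LPS- libraries and 10.4 to 75.6 CPM in the 6 LPS+ libraries. Il1b, a cytokine gene that LPS induces, split them by the genotype heading, with 0.0748 to 6.93 CPM in the 6 tlr4f/f libraries and 1639.9 to 8219.9 CPM in the 6 tlr4f/f-lysM-cre libraries. Exchanging the heading LPS- tlr4f/f-lysM-cre with the heading LPS+ tlr4f/f would put the low Tlr4 and Lyz2 in tlr4f/f-lysM-cre and the high Il1b in the LPS groups. Results are therefore named by the headings, and the next paragraph gives the reading of each comparison under the exchange. Macrophage markers were present in all libraries, with all 10 at a mean of at least 1 CPM in each group and sums of 4561 to 29884 CPM. These sums include Lyz2, which gave 23264 CPM of the highest sum and 10.7 CPM of the lowest. The 10 lymphocyte markers summed to at most 2.41 CPM and the 8 mast cell and basophil markers to at most 2.79 CPM. The 10 neutrophil markers summed to 3.96 to 219.8 CPM in the LPS- libraries and 10.3 to 19.3 CPM in the LPS+ libraries.

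The 4 pairwise comparisons are the same pairs of groups under both readings and only change their names. LPS+ tlr4f/f against LPS- tlr4f/f is the LPS effect in tlr4f/f as headed, and the genotype difference without LPS if exchanged. LPS- tlr4f/f-lysM-cre against LPS- tlr4f/f is the genotype difference without LPS as headed, and the LPS effect in tlr4f/f if exchanged. LPS+ against LPS- tlr4f/f-lysM-cre is the LPS effect in tlr4f/f-lysM-cre as headed, and the genotype difference with LPS if exchanged. LPS+ tlr4f/f-lysM-cre against LPS+ tlr4f/f is the genotype difference with LPS as headed, and the LPS effect in tlr4f/f-lysM-cre if exchanged. The interaction of genotype and LPS is the same number in both readings. Comparisons that have a group in common share its libraries and are not independent of each other.

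Per kilobase of transcript, the 10 mRNAs together made up 390.3 ± 116 CPM in LPS- tlr4f/f, 1248 ± 270.2 in LPS- tlr4f/f-lysM-cre, 493 ± 25.8 in LPS+ tlr4f/f and 919 ± 5.50 in LPS+ tlr4f/f-lysM-cre (SD, n = 3). The summed level was thus higher in each of the 6 libraries headed tlr4f/f-lysM-cre, at 916 CPM per kb or more, than in each of the 6 headed tlr4f/f, at 522 CPM per kb or less. These are levels in bulk RNA, in which more cells of a kind and more RNA per cell cannot be told apart. By mean level per kb, Junb, Jund and Atf3 were the most abundant members in every group. By their mean share of the summed CPM per kb, Junb led in LPS- tlr4f/f-lysM-cre with 46.8%, against 25.2% in LPS- tlr4f/f, 21.2% in LPS+ tlr4f/f and 23.4% in LPS+ tlr4f/f-lysM-cre. Atf3 led in LPS+ tlr4f/f with 38.8% and in LPS+ tlr4f/f-lysM-cre with 41.8%, and its mean in LPS- tlr4f/f, 26.1%, came with library values that overlapped those of Junb.

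**Figure D1:**
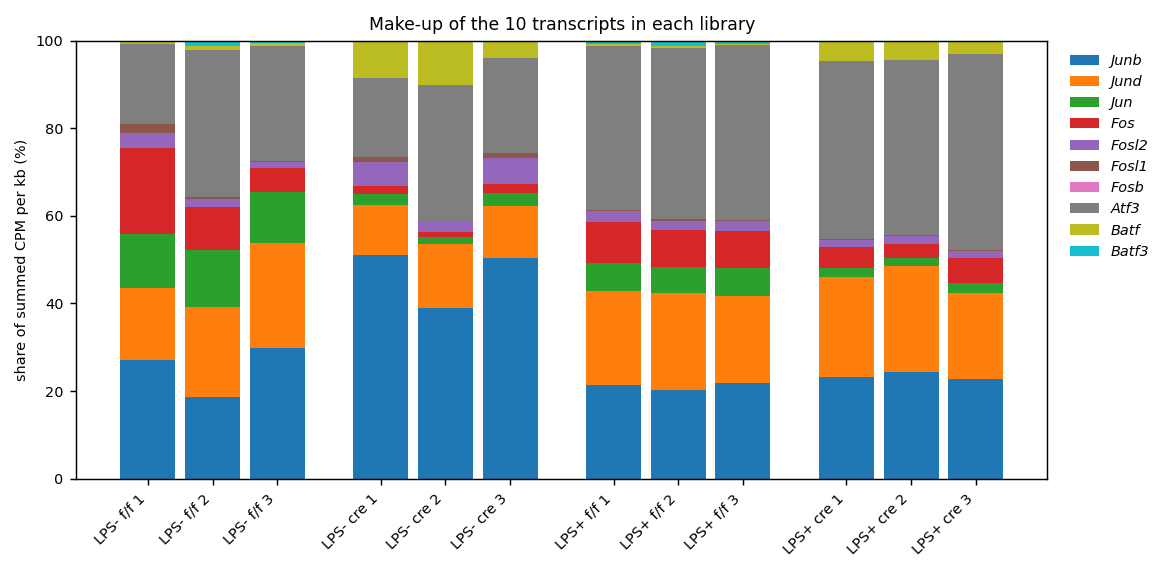
Share of each of the 10 genes in their summed CPM per kb of transcript (y axis, percent), 1 bar per library, in the 4 groups by column heading (f/f is tlr4f/f, cre is tlr4f/f-lysM-cre). Junb takes 39.0% to 51.0% of the sum in the LPS- cre libraries and 18.7% to 29.8% in the LPS- f/f libraries, and the mean shares of Jun and Fos are smaller in both cre groups than in LPS- f/f.

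The make-up differed within each subfamily. Jun had 0.392 to 0.701 times the level per kb of Junb in LPS- tlr4f/f and 0.293 to 0.298 times in LPS+ tlr4f/f. The ratio was 0.0401 to 0.0603 in LPS- tlr4f/f-lysM-cre and 0.0771 to 0.102 in LPS+ tlr4f/f-lysM-cre, so it did not overlap between the genotype headings. Fos, per kb, stood at 3.47 to 5.85 times Fosl2 in LPS- tlr4f/f and at 0.329 to 0.399 times Fosl2 in LPS- tlr4f/f-lysM-cre, the only group in which Fosl2 was above Fos. It was 3.75 to 3.96 times Fosl2 in LPS+ tlr4f/f and 1.82 to 3.51 times in LPS+ tlr4f/f-lysM-cre. Batf was 55.1 to 251 times as abundant per kb as Batf3 in LPS- tlr4f/f-lysM-cre. In LPS+ tlr4f/f-lysM-cre this ratio was 23.6 to 32.9. Their ratio was 0.893 to 2.27 in LPS- tlr4f/f and 0.362 to 0.470 in LPS+ tlr4f/f.

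**Figure D2:**
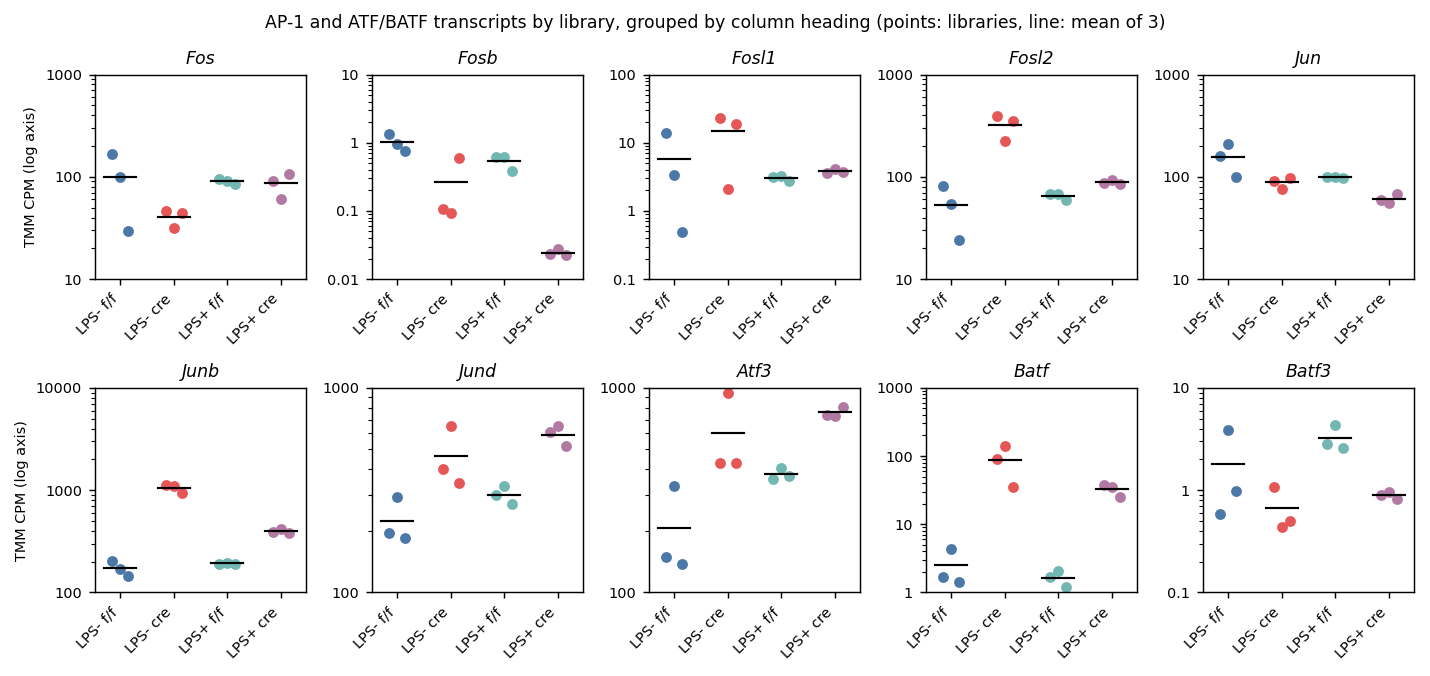
TMM-scaled CPM of each gene (y axis, log scale, 1 panel per gene) in each of the 12 libraries (points) by column heading (x axis; f/f is tlr4f/f, cre is tlr4f/f-lysM-cre), with a line at the mean of 3. Junb and Batf lie higher in all cre libraries than in all f/f libraries, Fosb is near the bottom of its axis in LPS+ cre, and for most genes the LPS- libraries are spread more widely than the LPS+ libraries.

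A gene was called when its fold change was above 2 and its adjusted p below 0.01, in the quasi-likelihood test of edgeR, with p adjusted over all genes tested by the Benjamini-Hochberg method. In LPS- tlr4f/f-lysM-cre against LPS- tlr4f/f, Junb, Fosl2 and Batf rose and no member fell. These are 3 of 10 members called, where 17.1% of all 14635 genes were called, 9.25% higher and 7.81% lower. The median log2 fold change was 1.19 over the members and -0.08 over all genes tested. The libraries of the groups did not overlap for 7 of 10 members, against 54.2% of all genes: Fosl2, Junb, Jund, Atf3 and Batf lay higher, and Fosb and Jun lower. As headed this is the genotype difference without LPS, and exchanged it is the response of tlr4f/f cells to LPS. Without replicate 1 or 2 of LPS- tlr4f/f-lysM-cre only Junb was called.

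In LPS+ tlr4f/f-lysM-cre against LPS+ tlr4f/f, Junb, Atf3 and Batf rose while Fosb and Batf3 fell. Here 5 of 10 members were called, against 21.7% of all 14540 genes, with 10.8% called higher and 10.9% called lower. In addition Jund, Fosl2 and Jun had an adjusted p below 0.01 with a fold change under 2, which makes 8 of 10 at any fold, where 50.8% of all genes passed. Every member but Fos separated the libraries of these groups, 9 of 10 against 67.3% of all genes. The members' median log2 fold change was 0.38, beside -0.02 for all genes tested. As headed this is the genotype difference with LPS, and exchanged it is the response of tlr4f/f-lysM-cre cells to LPS. The call of Atf3 rests on the 2-fold limit, since its fold change is 2.00. The members' median coefficient of variation was 7.69% in LPS+ tlr4f/f and 9.22% in LPS+ tlr4f/f-lysM-cre. It was 53.0% in LPS- tlr4f/f and 42.4% in LPS- tlr4f/f-lysM-cre. With such unequal spread, the numbers of calls between the LPS+ groups and between the LPS- groups do not compare the extent of their differences.

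Between LPS+ and LPS- tlr4f/f-lysM-cre, Fosl2 and Junb fell and no member rose. These are 2 of 9 members tested, against 6.08% of all 14234 genes called, 2.42% higher and 3.65% lower. Fosb was too low for a test. Libraries did not overlap for 4 of 9 members, where this held for 48.0% of all genes: Fos was higher, and Fosl2, Jun and Junb were lower. The median log2 fold change was -0.54 for the members and 0.03 for all genes. As headed this is the response of tlr4f/f-lysM-cre cells to LPS, and exchanged it is the genotype difference with LPS. Both calls were lost when any 1 of the 3 LPS+ tlr4f/f-lysM-cre libraries was left out, and DESeq2 called 5 members instead: Fos higher, and Fosl1, Fosl2, Junb and Batf lower.

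Between LPS+ and LPS- tlr4f/f, 0 of 10 members were called by edgeR, and so were 0.0% of all 14701 genes, of which 3624 had an unadjusted p below 0.05. DESeq2 also called 0 members. Lyz2, at a log2 fold change of -10.09 (edgeR adjusted p = 0.0224), and Tlr4, at -2.02 (edgeR adjusted p = 0.0402), also went uncalled, although their libraries did not overlap. With no gene called, the 0 calls do not show that the members were alike in these groups. The libraries did not overlap for 2 of 10 members, Atf3 higher and Fosb lower in LPS+ tlr4f/f, against 35.5% of all genes. The median log2 fold change was 0.02 for the members and -0.03 for all genes. As headed this is the response of tlr4f/f cells to LPS, and exchanged it is the genotype difference without LPS. The libraries of LPS- tlr4f/f varied more than those of LPS+ tlr4f/f: the median coefficient of variation of the members was 53.0% against 7.69%, and that of all genes 23.0% against 8.16%.

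**Figure D3:**
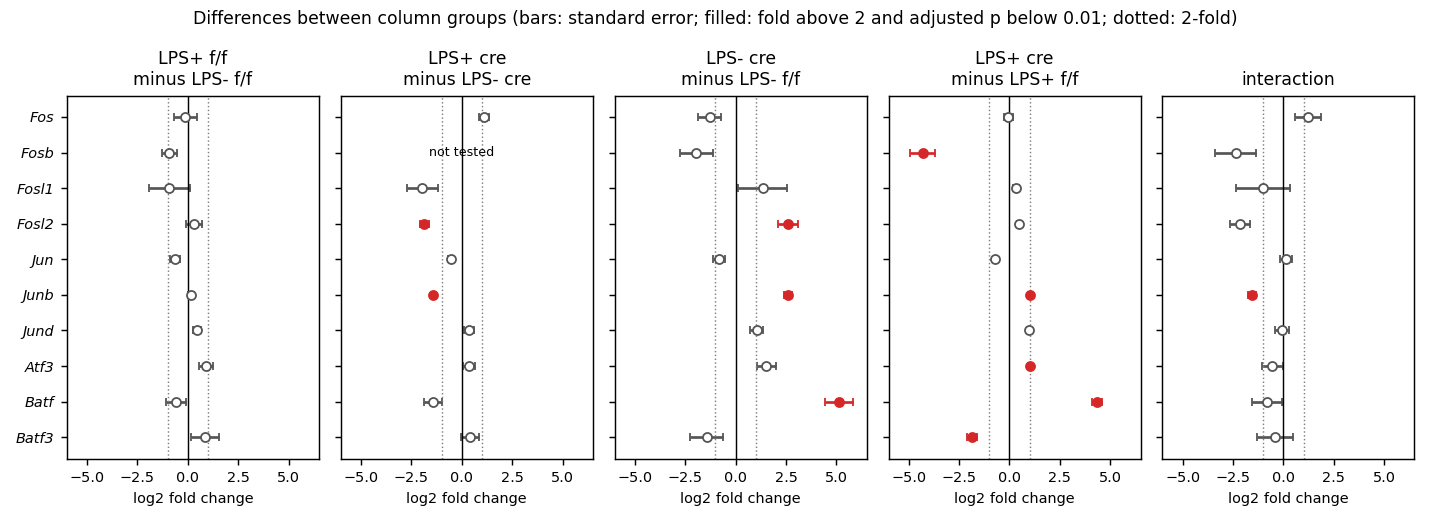
Log2 fold change (x axis) of each gene (y axis) with its standard error, in the 4 pairs of groups and for the interaction, from edgeR's fits; filled points passed the fold and adjusted p limits, and dotted lines mark a 2-fold difference. Junb is filled in 4 of the 5 panels and Batf in 2, and no point is filled in LPS+ f/f minus LPS- f/f.

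JUN proteins are the part of the family that every AP-1 dimer needs. Junb (chromosome 8, 84974484 to 84978718 on the minus strand of GRCm38, 1 exon in the RefSeq transcript) encodes a JUN protein that in macrophages is induced by LPS and works on inflammatory genes. It was counted at 204, 170.5 and 146 CPM in LPS- tlr4f/f and at 1128, 1104 and 929 CPM in LPS- tlr4f/f-lysM-cre. LPS+ tlr4f/f had 191, 195 and 190.0 CPM and LPS+ tlr4f/f-lysM-cre 389.9, 414 and 383 CPM. Both tlr4f/f groups overlapped each other, LPS+ tlr4f/f-lysM-cre lay above them, and LPS- tlr4f/f-lysM-cre lay above all others. The log2 fold change of LPS- tlr4f/f-lysM-cre over LPS- tlr4f/f was 2.59 (standard error 0.214, edgeR adjusted p = 0.000665), a rise of 6.03-fold, and that of LPS+ tlr4f/f-lysM-cre over LPS+ tlr4f/f was 1.04 (standard error 0.0514, edgeR adjusted p = 3.43e-09). From LPS- to LPS+ tlr4f/f-lysM-cre Junb fell by 1.40 on the log2 scale (standard error 0.122, edgeR adjusted p = 0.00135), while LPS+ over LPS- tlr4f/f was 0.17 (edgeR adjusted p = 0.495).

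Junb was also the only member called in the interaction of genotype and LPS, at a log2 value of -1.56 (standard error 0.190, edgeR adjusted p = 0.00244), 1 of 10 members where 1.04% of all 15775 genes were called, 0.659% higher and 0.38% lower. The value is the LPS difference under the tlr4f/f-lysM-cre headings minus that under the tlr4f/f headings, and the exchange of headings leaves it as it is. Its adjusted p rose to between 0.0124 and 0.0155 when any 1 of the 6 LPS+ libraries was left out. Prdx2 lies across the end of the annotated Junb gene on the other strand, but it shares 0 exon bases with the RefSeq-matched transcript of Junb.

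Jund (chromosome 8, 70698949 to 70700616, plus strand, 1 exon) encodes the JUN protein that most cells make without stimulation. It stood at 195, 292 and 183 CPM in LPS- tlr4f/f and at 399, 649 and 344 CPM in LPS- tlr4f/f-lysM-cre. It was at 299, 332 and 269 CPM in LPS+ tlr4f/f and at 605, 648 and 518 CPM in LPS+ tlr4f/f-lysM-cre. At each LPS heading, all tlr4f/f-lysM-cre libraries were above all tlr4f/f libraries, and only the LPS+ difference passed the adjusted p limit, with a fold change just under 2. Its log2 fold change there was 0.97 (standard error 0.0960, edgeR adjusted p = 1.59e-05), and without LPS in the heading it was 1.04 (standard error 0.303, edgeR adjusted p = 0.0361). The GENCODE exon of Jund, whose position is given here, has 1668 bases, and the antisense gene Gm11175 covers 877 of them and had 2542 to 6299 counts. The RefSeq transcript that was counted is longer, with 2878 bases, and its further bases were not checked for overlap. The library kit does not mark the strand, so reads in the shared bases cannot be assigned to Jund or Gm11175.

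Jun (chromosome 4, 95049034 to 95052222, minus strand, 1 exon), the founding JUN gene, had the opposite order. It was at 161, 207 and 99.0 CPM in LPS- tlr4f/f, at 90.9, 76.8 and 97.1 CPM in LPS- tlr4f/f-lysM-cre, at 98.6, 100.3 and 96.6 CPM in LPS+ tlr4f/f and at 59.2, 55.2 and 67.6 CPM in LPS+ tlr4f/f-lysM-cre. All 3 libraries of LPS+ tlr4f/f-lysM-cre were below the other 9. Between the LPS+ groups its log2 fold change was -0.70 (standard error 0.0695, edgeR adjusted p = 2.08e-06), which passed the adjusted p limit but not the fold limit. The other differences were -0.83 for the LPS- groups (edgeR adjusted p = 0.0607), -0.54 for LPS+ against LPS- tlr4f/f-lysM-cre (edgeR adjusted p = 0.0347) and -0.64 for LPS+ against LPS- tlr4f/f (edgeR adjusted p = 0.197). Junos, antisense to Jun, shares 232 of its 3189 exon bases and had 10 to 312 counts.

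FOS proteins are the partners that cannot act without JUN. Fosl2 (chromosome 5, 32135801 to 32157842, plus strand, 4 exons) encodes FRA2, a FOS protein without the strong transactivation domain of FOS. It was at 80.7, 54.5 and 24.0 CPM in LPS- tlr4f/f and at 397, 223 and 349.7 CPM in LPS- tlr4f/f-lysM-cre. The LPS+ libraries had 67.2, 68.0 and 59.8 CPM for tlr4f/f and 87.8, 94.0 and 86.0 CPM for tlr4f/f-lysM-cre. LPS- tlr4f/f-lysM-cre was above all 9 other libraries, and the LPS+ groups were closer together but did not overlap. LPS- tlr4f/f-lysM-cre exceeded LPS- tlr4f/f by a log2 fold change of 2.60 (standard error 0.485, edgeR adjusted p = 0.00822), 6.06-fold, and Fosl2 fell by 1.85 (standard error 0.230, edgeR adjusted p = 0.00344) from there to LPS+ tlr4f/f-lysM-cre. The first of these values kept its size but had an adjusted p of 0.0160 to 0.0323 in edgeR without replicate 1, 2 or 3 of LPS- tlr4f/f-lysM-cre or replicate 2 of LPS- tlr4f/f. Between the LPS+ groups the log2 fold change was 0.45 (standard error 0.0618, edgeR adjusted p = 3.88e-05), and the interaction was -2.15 (edgeR adjusted p = 0.0302), not a call.

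Fos (chromosome 12, 85473890 to 85477273, plus strand, 4 exons), the best known immediate-early gene, was called in no comparison. It was at 168, 99.9 and 29.7 CPM in LPS- tlr4f/f, a 5.67-fold range within the group, and at 46.5, 31.8 and 44.3 CPM in LPS- tlr4f/f-lysM-cre. The LPS+ libraries had 94.5, 91.0 and 84.4 CPM for tlr4f/f and 91.5, 61.0 and 108 CPM for tlr4f/f-lysM-cre. Fos was the only member whose LPS+ groups overlapped, and its lowest value of all came from LPS- tlr4f/f. The log2 fold change of LPS+ over LPS- tlr4f/f-lysM-cre was 1.09 (standard error 0.252, edgeR adjusted p = 0.0223), which misses the adjusted p limit in edgeR and passes it in DESeq2 (adjusted p = 0.000791). The sign of the difference between the LPS+ groups, -0.06 (edgeR adjusted p = 0.846), turned to 0.14 without replicate 2 of LPS+ tlr4f/f-lysM-cre, and that of LPS+ against LPS- tlr4f/f, -0.12 (edgeR adjusted p = 0.913), turned to 0.51 without replicate 1 of LPS- tlr4f/f.

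Fosb (chromosome 7, 19302696 to 19310051, minus strand, 4 exons), another early FOS gene, was the scarcest member in every group. It was counted 79, 60 and 40 times in LPS- tlr4f/f, 4, 3 and 19 times in LPS- tlr4f/f-lysM-cre, and 29, 24 and 22 times in LPS+ tlr4f/f. Each LPS+ tlr4f/f-lysM-cre library had 1 count. The last group is at the floor of 3 counts per library, and against that floor Fosb was at least 7.32-fold lower than in LPS+ tlr4f/f. This bound was not tested. The test of any difference between these groups gave an edgeR adjusted p of 6.41e-05, at a fitted log2 fold change of -4.31. Against LPS- tlr4f/f-lysM-cre Fosb was at least 3.62-fold lower, a bound that rests on the library with 19 counts. LPS- tlr4f/f-lysM-cre against LPS- tlr4f/f gave a log2 value of -1.95 (standard error 0.822, edgeR adjusted p = 0.107), with no overlap between the libraries.

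Fosl1 (chromosome 19, 5447547 to 5455946, plus strand, 4 exons) encodes FRA1, a FOS protein common in fibroblasts and tumour cells. It was at 13.7, 3.34 and 0.486 CPM in LPS- tlr4f/f and 23.3, 2.13 and 18.9 CPM in LPS- tlr4f/f-lysM-cre, against 3.10, 3.30 and 2.79 CPM in LPS+ tlr4f/f and 3.54, 4.14 and 3.78 CPM in LPS+ tlr4f/f-lysM-cre. The LPS- libraries thus covered a range that enclosed all LPS+ libraries, and Fosl1 was called in no comparison by edgeR with all libraries. LPS+ against LPS- tlr4f/f-lysM-cre was -1.96 (standard error 0.758, edgeR adjusted p = 0.101) and became a call, at -2.47 (edgeR adjusted p = 0.00112), without replicate 2 of LPS- tlr4f/f-lysM-cre. The summed CPM of the 10 fibroblast and stroma markers was, like Fosl1, highest in replicate 1 and lowest in replicate 3 of LPS- tlr4f/f and lowest in replicate 2 of LPS- tlr4f/f-lysM-cre: 693, 63.9 and 11.1 in replicates 1, 2 and 3 of LPS- tlr4f/f and 1015, 192 and 1561 in those of LPS- tlr4f/f-lysM-cre. In the LPS+ libraries the sums were 23.2 to 28.2 CPM for tlr4f/f and 48.4 to 61.5 CPM for tlr4f/f-lysM-cre. At least 1 CPM was reached by 8 of these 10 markers in each LPS- group, 5 in LPS+ tlr4f/f and 6 in LPS+ tlr4f/f-lysM-cre, and none was at 0 in all libraries of a group. Fosl2 and Fos too were highest in replicate 1 and lowest in replicate 3 of LPS- tlr4f/f and lowest in replicate 2 of LPS- tlr4f/f-lysM-cre. The highest library of LPS- tlr4f/f-lysM-cre was not the same: replicate 1 for Fosl1, Fosl2 and Fos, and replicate 3 for the marker sum. The part of these markers in the values of Fosl1, Fosl2 and Fos was not tested. Ccdc85b, on the other strand, covers 1163 of the 1864 exon bases of the GENCODE transcript of Fosl1 and had 131 to 1583 counts. Reads in the shared bases cannot be assigned to Fosl1 or Ccdc85b.

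Atf3, Batf and Batf3 pair with JUN in place of FOS. Batf (chromosome 12, 85686669 to 85709087, plus strand, 3 exons), known for its part in T cell and B cell differentiation, showed the largest fold change of the members between the LPS- groups. It was at 1.68, 4.36 and 1.44 CPM in LPS- tlr4f/f and 1.68, 2.05 and 1.19 CPM in LPS+ tlr4f/f. In LPS- tlr4f/f-lysM-cre it was at 90.3, 139 and 34.8 CPM and in LPS+ tlr4f/f-lysM-cre at 37.6, 35.3 and 24.6 CPM. No library headed tlr4f/f came near any library headed tlr4f/f-lysM-cre: the lowest of the latter was 7.98 times the highest of the former without LPS in the heading, and this gap was wider with it. The log2 fold changes were 5.12 (standard error 0.709, edgeR adjusted p = 0.00303) and 4.33 (standard error 0.239, edgeR adjusted p = 2.66e-06), or 34.8-fold and 20.2-fold. The first kept a log2 value of 4.65 or more but had an adjusted p of 0.0102 to 0.0127 in edgeR without replicate 1 or 2 of LPS- tlr4f/f-lysM-cre or replicate 1 or 3 of LPS- tlr4f/f. LPS+ over LPS- tlr4f/f-lysM-cre was -1.42 (standard error 0.456, edgeR adjusted p = 0.0613), and without replicate 3 of LPS- tlr4f/f-lysM-cre it was a call at -1.83 (edgeR adjusted p = 0.00627).

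Atf3 (chromosome 1, 191170296 to 191218039, minus strand, 4 exons) was at 149, 329.9 and 138 CPM in LPS- tlr4f/f, 428, 947 and 430.0 CPM in LPS- tlr4f/f-lysM-cre, 357, 403 and 373 CPM in LPS+ tlr4f/f and 736, 732 and 809 CPM in LPS+ tlr4f/f-lysM-cre. At each LPS heading the tlr4f/f-lysM-cre libraries were all above the tlr4f/f libraries, and replicate 2 was the highest in both LPS- groups, by 2.39-fold and 2.21-fold over the lowest. Its log2 fold change between the LPS+ groups was 1.00 (standard error 0.0636, edgeR adjusted p = 3.30e-08). This value went to between 0.95 and 0.98, under the 2-fold limit, without replicate 3 of LPS+ tlr4f/f-lysM-cre or replicate 1 or 3 of LPS+ tlr4f/f, and the call also ended in edgeR's fit of all 12 libraries (adjusted p = 0.0591). The difference between the LPS- groups was 1.53 (standard error 0.472, edgeR adjusted p = 0.0441), and LPS+ over LPS- tlr4f/f was 0.90 (edgeR adjusted p = 0.182) although its libraries did not overlap.

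Batf3 (chromosome 1, 191097847 to 191108945, plus strand, 3 exons), which cross-presenting dendritic cells need for their development, was low throughout. It was at 0.582, 3.85 and 0.990 CPM in LPS- tlr4f/f, 1.07, 0.438 and 0.498 CPM in LPS- tlr4f/f-lysM-cre, 2.81, 4.30 and 2.58 CPM in LPS+ tlr4f/f and 0.902, 0.965 and 0.822 CPM in LPS+ tlr4f/f-lysM-cre. It was lower in all LPS+ tlr4f/f-lysM-cre libraries than in all LPS+ tlr4f/f libraries, with a log2 fold change of -1.85 (standard error 0.248, edgeR adjusted p = 3.29e-05), while the LPS- groups overlapped (-1.43, edgeR adjusted p = 0.213). In edgeR's fit of all 12 libraries the first value was again -1.85 but had an adjusted p of 0.0461, which ends the call. The summed CPM of 10 dendritic cell markers was 0.654 to 1.35 and 1.03 to 1.66 in LPS- and LPS+ tlr4f/f, and 5.22 to 13.4 and 3.72 to 4.27 in LPS- and LPS+ tlr4f/f-lysM-cre. No marker reached a mean of 1 CPM in the tlr4f/f groups, 2 did in LPS- tlr4f/f-lysM-cre and 1 in LPS+ tlr4f/f-lysM-cre. Siglech was at 0 in LPS- tlr4f/f and Cd209a at 0 in LPS- tlr4f/f-lysM-cre. Xcr1, a receptor of the dendritic cells that need Batf3, had a mean of 2.46 CPM in LPS+ tlr4f/f-lysM-cre and 0.205 CPM in LPS+ tlr4f/f, so this marker was higher where Batf3 was lower. Clec9a and Itgae, which mark the same cells, had means of 0.208 and 0.159 CPM in LPS+ tlr4f/f-lysM-cre and 0.299 and 0.257 CPM in LPS+ tlr4f/f, from 4 to 23 counts per library. The part of these cells in the values of Batf and Batf3 was not tested.

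Promoters of the 3 members called together between the LPS- groups, Batf, Junb and Fosl2, are shown with those of Fos and Atf3, which hold the same CRE core as Batf. Each is the 250 bases before the RefSeq start of the gene in GRCm38.p6, written on the strand of the gene: chr12:85686470-85686719 (plus) for Batf, chr8:84978749-84978998 (minus) for Junb, chr5:32136222-32136471 (plus) for Fosl2, chr12:85473640-85473889 (plus) for Fos and chr1:191183334-191183583 (minus) for Atf3. These RefSeq starts are not always the ends of the gene spans given above. The Fosl2 and Atf3 windows lie inside those spans, and the Batf window reaches into its span. Capitals mark the CRE core TGACGT on either strand, the NF-kB motif and the TATA box TATAAA.
Batf: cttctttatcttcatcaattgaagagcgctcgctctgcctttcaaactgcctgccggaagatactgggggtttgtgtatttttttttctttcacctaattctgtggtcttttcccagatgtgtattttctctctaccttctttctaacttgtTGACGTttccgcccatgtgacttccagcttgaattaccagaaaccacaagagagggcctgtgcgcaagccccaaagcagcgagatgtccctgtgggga
Junb: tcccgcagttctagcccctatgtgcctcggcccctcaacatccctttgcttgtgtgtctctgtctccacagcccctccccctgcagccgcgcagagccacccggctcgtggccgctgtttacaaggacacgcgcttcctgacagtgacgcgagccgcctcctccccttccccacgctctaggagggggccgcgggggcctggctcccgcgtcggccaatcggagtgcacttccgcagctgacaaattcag
Fosl2: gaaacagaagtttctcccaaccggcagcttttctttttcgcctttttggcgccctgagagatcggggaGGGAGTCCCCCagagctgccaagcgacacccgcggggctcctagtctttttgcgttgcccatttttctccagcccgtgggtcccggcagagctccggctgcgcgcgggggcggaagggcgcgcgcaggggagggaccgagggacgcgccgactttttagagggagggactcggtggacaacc
Fos: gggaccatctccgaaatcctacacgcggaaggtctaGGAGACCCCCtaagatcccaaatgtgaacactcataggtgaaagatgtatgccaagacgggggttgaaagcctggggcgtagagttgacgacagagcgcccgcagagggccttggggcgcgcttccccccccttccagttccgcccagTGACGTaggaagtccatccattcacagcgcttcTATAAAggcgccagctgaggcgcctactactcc
Atf3: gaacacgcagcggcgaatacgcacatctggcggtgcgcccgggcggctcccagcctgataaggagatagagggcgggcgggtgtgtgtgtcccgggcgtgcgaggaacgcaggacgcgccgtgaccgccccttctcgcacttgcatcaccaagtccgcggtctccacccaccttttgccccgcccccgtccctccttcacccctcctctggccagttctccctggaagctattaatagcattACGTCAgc
A RefSeq promoter was matched for 9 of the 10 members, all but Fosl1. The CRE core, TGACGT, lies 98 to 93 bases before the start of Batf, 66 to 61 before that of Fos and, on the other strand, 8 to 3 before that of Atf3. These are 3 of 9 members, and 6.47% of all 32851 mouse promoters of the same length hold it. The AP-1 site TGANTCA, which shares no full match with the CRE core, is in 0 of 9 members and in 6.75% of all promoters. An NF-kB motif is in 3 of 9, Fos, Fosb and Fosl2, and in 7.25% of all promoters, a CArG box in 0 of 9 and in 1.47%, and TATAAA in 1 of 9, Fos, and in 12.4%. Of the members called between the LPS- groups, Batf thus holds the CRE core, Fosl2 the NF-kB motif and Junb none of these motifs in this window. A match is a description of letters and not a measured site. The lack of a match does not show that a site is absent, since variants of these letters and bases outside the window were not searched.

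Among 28 other bZIP factors, 9 were called higher and 1 lower between the LPS- groups, beside 9.25% and 7.81% of all genes. Between the LPS+ groups 10 were called higher and 3 lower, beside 10.8% and 10.9% of all genes. Batf2, the other gene of the BATF group, had a mean of 101 CPM in LPS- tlr4f/f-lysM-cre and 2.82 CPM in LPS- tlr4f/f (log2 fold change 5.15, edgeR adjusted p = 0.00162), and 33.8 against 3.05 CPM in the LPS+ groups (3.49, edgeR adjusted p = 1.25e-07). All 3 genes of the BATF group were therefore called between the LPS+ groups, Batf and Batf2 higher and Batf3 lower in LPS+ tlr4f/f-lysM-cre. Cebpb, a C/EBP factor of inflammatory gene induction, rose by 2.77 and 1.43 on the log2 scale between the LPS- and the LPS+ groups (edgeR adjusted p = 0.000812 and 9.30e-08). Cebpa, a C/EBP factor of myeloid differentiation, fell, with log2 fold changes of -2.37 and -1.12 (edgeR adjusted p = 0.00254 and 6.24e-08). The median log2 fold change of the list was 0.60 between the LPS- groups and 0.38 between the LPS+ groups, beside -0.08 and -0.02 for all genes. From LPS- to LPS+ tlr4f/f-lysM-cre, 0 of 27 rose and 4 fell, beside 2.42% and 3.65% of all genes. The 4 were Atf5, Cebpb, Ddit3 and Nfil3. Bach2, a bZIP repressor, had the largest fall of these 28 between the LPS+ groups, with a log2 fold change of -3.47 (edgeR adjusted p = 2.74e-05). It was scarce, at 1.35 CPM (55 to 78 counts) in LPS+ tlr4f/f and 0.116 CPM (2 to 9 counts) in LPS+ tlr4f/f-lysM-cre, so the size of this fall rests on few counts.

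The kinases of the MAPK cascades induce and phosphorylate AP-1 proteins. Of 23 tested, 5 were called higher and 1 lower between the LPS- groups, 26.1% beside 17.1% of all genes, and 3 higher and 3 lower between the LPS+ groups, 26.1% beside 21.7%, a share near that of all genes. Map3k8, a kinase that TLR4 needs to activate ERK, rose by 3.28 between the LPS- groups (edgeR adjusted p = 0.000410), and Mapkapk2, the kinase below p38, rose by 2.57 between the LPS+ groups (edgeR adjusted p = 6.54e-12). Rps6ka5, which encodes MSK1, fell by 3.76 between the LPS- groups (edgeR adjusted p = 0.00128), and Map2k6, which activates p38, fell by 3.58 between the LPS+ groups (edgeR adjusted p = 2.44e-06). Between LPS+ and LPS- tlr4f/f-lysM-cre 1 of 23 kinases was called, 4.35%, which is not above the 6.08% of all genes. This was Mapk14, encoding p38 alpha, with a rise of 1.44 on the log2 scale (edgeR adjusted p = 0.00159). Mapk14 was also the 1 of 23 called in the interaction, at 1.61 (edgeR adjusted p = 0.00236), where 1.04% of all genes were called. The median of the kinases was 0.43 between the LPS- groups and 0.22 between the LPS+ groups.

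Of 16 activators and partners of the family, 4 rose and 3 fell between the LPS- groups, where 9.25% of all genes rose and 7.81% fell. Between the LPS+ groups 2 rose and 5 fell, where 10.8% of all genes rose and 10.9% fell. Nfkb1, the p50 subunit of NF-kB, rose by 3.05 and 2.86 (edgeR adjusted p = 0.00107 and 1.85e-12), and Nfatc2, whose protein binds together with AP-1, had log2 fold changes of -3.89 and -2.36 (edgeR adjusted p = 0.000925 and 7.68e-09). Irf4, a partner of BATF, fell by 1.38 between the LPS+ groups (edgeR adjusted p = 3.24e-06). Its means were 7.96 CPM in LPS+ tlr4f/f and 3.08 CPM in LPS+ tlr4f/f-lysM-cre. Irf8, the other IRF partner named above, was more abundant in these groups, at 216 and 243 CPM, and was not called between them. The median of the list was 0.23 and -0.07. From LPS- to LPS+ tlr4f/f-lysM-cre 1 of 16 was called, 6.25%, a share near the 6.08% of all genes. This was Mef2c, a MADS box factor, which rose by 1.67 (edgeR adjusted p = 0.00209).

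Genes known as AP-1 targets had more of their members called between the LPS+ groups than any other list of factors, kinases or stress genes. Of 26, 10 rose and 1 fell between the LPS- groups, 42.3% beside 17.1% of all genes, and 18 rose and 3 fell between the LPS+ groups, 80.8% beside 21.7%. Il6, a cytokine gene, went from a mean of 0.463 CPM in LPS- tlr4f/f to 739.6 CPM in LPS- tlr4f/f-lysM-cre and from 0.210 CPM in LPS+ tlr4f/f to 192 CPM in LPS+ tlr4f/f-lysM-cre (edgeR adjusted p = 0.00357 and 8.12e-06). Ccnd1, the cyclin D1 gene, fell, with log2 fold changes of -3.24 and -3.15 (edgeR adjusted p = 0.00242 and 1.70e-11). The medians of this list, 3.98 and 2.98, lie above those of the members. From LPS- to LPS+ tlr4f/f-lysM-cre 1 of 26 rose, Plau, by 1.91 (edgeR adjusted p = 0.00798), and 5 fell, 23.1% called beside 6.08% of all genes. Many of these genes are also targets of NF-kB, which the counts do not separate from AP-1.

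Other immediate-early and stress genes had 7 of 17 called higher and 0 called lower between the LPS- groups, 41.2% beside 17.1% of all genes, and 9 higher and 2 lower between the LPS+ groups, 64.7% beside 21.7%. Their summed CPM was 4420 to 5040 in LPS- tlr4f/f-lysM-cre, 1738 to 1857 in LPS+ tlr4f/f-lysM-cre, and 662 to 947 in the 6 tlr4f/f libraries, the same order of groups as for Junb. Dusp2, a phosphatase that switches MAPKs off, rose by 6.15 between the LPS- groups (edgeR adjusted p = 0.00274), and Ier3, an early response gene, by 3.66 between the LPS+ groups (edgeR adjusted p = 2.00e-12), where Klf4 fell by 2.51 (edgeR adjusted p = 1.97e-07). From LPS- to LPS+ tlr4f/f-lysM-cre 6 of 17 fell, among which Nr4a1 fell by 3.63 (edgeR adjusted p = 0.00751), and 1 rose, Egr2, by 3.02 (edgeR adjusted p = 0.000960). Together this is 41.2% of the list, beside 6.08% of all genes. In the integrated stress response, in which ATF4 and ATF3 act, 2 of 12 rose and 0 fell both between the LPS- groups and between the LPS+ groups, a share of 16.7% that is not above the 17.1% and 21.7% of all genes, Ppp1r15a and the cystine transporter gene Slc7a11 in each. Slc7a11 rose by 4.75 and 5.16 (edgeR adjusted p = 0.00417 and 4.41e-13). Ddit3, encoding CHOP, fell by 1.58 from LPS- to LPS+ tlr4f/f-lysM-cre (edgeR adjusted p = 0.00747), and Atf5 was the other gene of the 12 to fall. Both together are 16.7% of this list, beside 6.08% of all genes. Between LPS+ and LPS- tlr4f/f, no gene of any of these 6 lists was called, where 0.0% of all genes were.

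**Figure D4:**
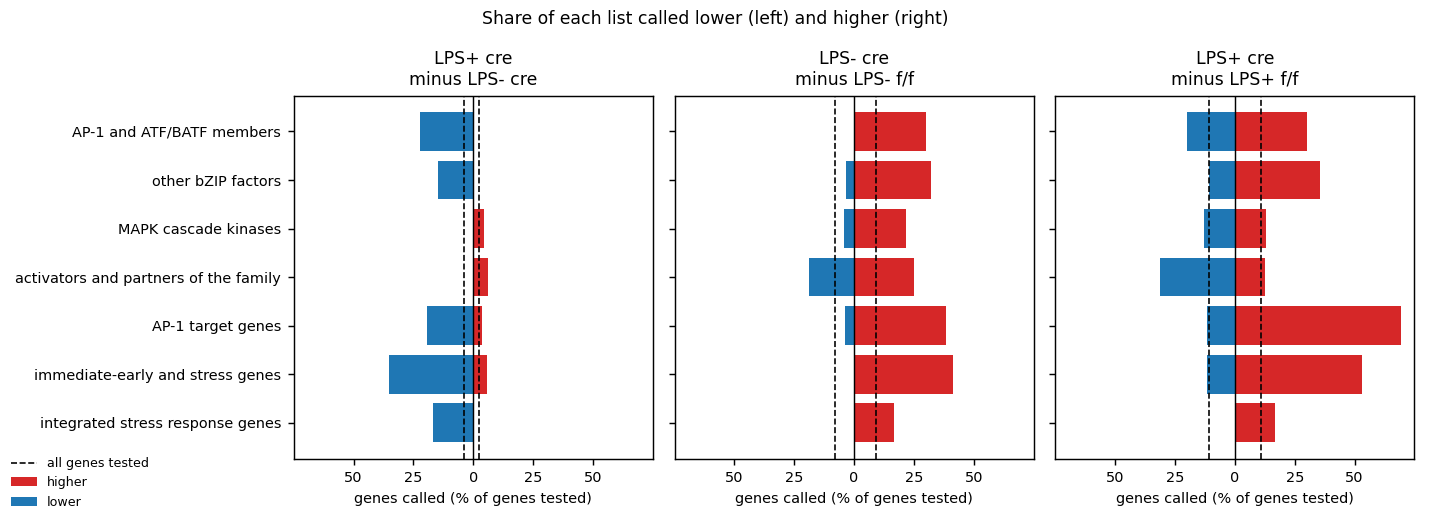
Percent of the tested genes of each list called higher (red, to the right) and lower (blue, to the left) in 3 pairs of groups, with dashed lines at the percent of all genes tested that were called in each direction. The 10 members and the AP-1 target genes have more calls to the right than to the left between both genotype headings, and calls to the left between LPS+ cre and LPS- cre.

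The likeness of patterns over the 12 libraries was described by Pearson's r of log2(CPM + 1), without a test, since the points share groups and libraries. Junb was most like Pcgf5, Stau1 and Ifitm1 (r of 0.994, 0.994 and 0.993), and Batf most like Psmb10, Zcchc2 and Tapbpl (0.996, 0.994 and 0.993). Fosl2 was nearest to Gm26797, LOC108167690 and Timp1 (0.975, 0.973 and 0.968), and Fosl1 to Unc5b, Nedd4 and Ryk (0.970, 0.964 and 0.961). The gene nearest to Jund was its own antisense gene Gm11175 (0.993), followed by Slc25a10 and Sat1 (0.971 and 0.969). Atf3 was nearest to Fam20c, F10 and Jund (0.986, 0.978 and 0.964). Fos had Dok2, Relt and Pnn (0.929, 0.922 and 0.905), Fosb had Sipa1l2, Mef2d and Slbp (0.965, 0.953 and 0.952), Jun had Tmem8, Dusp7 and Abcg3 (0.938, 0.936 and 0.933), and Batf3 had Tmem251, Prune and Ipcef1 (0.921, 0.921 and 0.920). Within the family, the closest pairs were Jund with Atf3 (0.964), Junb with Fosl2 (0.934), Batf with Junb (0.931) and Jun with Fosb (0.882), while r with any other member reached at most 0.364 for Fos and 0.416 for Batf3.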

How the data were processed

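RNA was extracted from BMDMs with Trizol, with rRNA removal in the labels and polyA selection in the methods, and sequenced with a NEBNext Ultra kit, which does not mark the strand. The authors trimmed the reads (Trimmomatic 0.36, per the submitters' processing notes), aligned with HISAT2 to the mm10 genome and summarised by HTSeq. The deposited values are whole-number counts, not normalized, for 115140 transcripts, and the transcript with the highest total was taken for each of 43131 genes; 7551 of 7596 Ensembl gene identifiers matched a symbol. Counting error alone is covered by the floor of 3 counts.

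Libraries were grouped by the table's headings. The quasi-likelihood test of edgeR 4.0.16 in R 4.3.3 was used (filter by filterByExpr, TMM factors, robust fit), per pair of groups with its 6 libraries and for the interaction with all 12, and p-values were adjusted over all genes tested. A call needed both an adjusted p under 0.01 and a change of more than 2-fold. The standard error is the log2 fold change divided by the square root of F. The scripts were tested on simulated data. Members and gene lists were chosen with earlier results of these data known. Named genes are the 10 members, Tlr4, Lyz2 and Il1b, and the 3 genes most like each member. Each list adds the called gene with the largest change in each direction, where all libraries of the higher group had 10 counts or more. Cebpb, Irf4, Irf8, Clec9a, Itgae, Ppp1r15a, Atf5, Nfil3 and the genes of overlap were named after their values were seen. For 1 listed gene no individual values are given here. Creb1, Atf4, Atf5 and Ddit3 are each in 2 lists. Alternatives were DESeq2 1.42.0, voom of limma 3.58.1 with sample weights, RLE factors, other filters, all 12 libraries in a single fit, a replicate block, an adjusted p below 0.05, each library left out, the sum over transcripts, and the headings exchanged. Gene positions are from GENCODE and promoters from RefSeq, both on GRCm38.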

Additional observations from a re-analysis of the deposited data

Results flagged for a closer look

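Junb stood out because its difference between LPS+ and LPS- libraries was not the same under the tlr4f/f and the tlr4f/f-lysM-cre headings: the interaction was -1.56 on the log2 scale (standard error 0.190, edgeR adjusted p = 0.00244), with LPS+ minus LPS- at 0.17 for tlr4f/f and -1.40 for tlr4f/f-lysM-cre. All 3 LPS+ tlr4f/f-lysM-cre libraries were below all 3 LPS- tlr4f/f-lysM-cre libraries, and the tlr4f/f groups overlapped. Exchanging the headings gives the same interaction, and the LPS differences are then 2.59 for tlr4f/f and 1.04 for tlr4f/f-lysM-cre.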

How the results depend on the processing

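Of the members' log2 fold changes under the alternatives, 714 kept their direction and their side of the limits, 20 passed the limits newly, 33 no longer passed and 15 changed sign; all 40 mean levels moved by less than 1 SD with RLE factors. Read with the headings exchanged, the number of members called for LPS in tlr4f/f went from 0 to 3, for LPS in tlr4f/f-lysM-cre from 2 to 5, for the genotypes without LPS from 3 to 0 and for the genotypes with LPS from 5 to 2. DESeq2 called 5 between LPS+ and LPS- tlr4f/f-lysM-cre, 5 between the LPS- groups (Jund and Atf3 added) and 2 in the interaction (Fosl2 added). An adjusted p below 0.05 gave the same 5 and 2 for the last of these, voom gave 2 in the interaction, and the fit of all 12 libraries gave 5 between the LPS- groups and 3 between the LPS+ groups (Fosb, Junb and Batf). The causes were not tested.

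With 1 library left out, the number called was 0 to 3 between LPS+ and LPS- tlr4f/f-lysM-cre (0 without any 1 LPS+ library), 1 to 2 between the LPS- groups, 4 to 6 between the LPS+ groups and 0 to 1 in the interaction (0 without any 1 of the 6 LPS+ libraries); a left-out library also leaves fewer samples. Signs changed for LPS+ against LPS- tlr4f/f in Fos (-0.56 to 0.51), Fosl1 (-1.46 to 0.71), Fosl2 (-0.040 to 0.76) and Batf (-0.87 to 0.094), for the LPS+ groups in Fos (-0.24 to 0.14), and in the interaction for Jun (-0.14 to 0.37), Jund (-0.32 to 0.23, and 0.068 with voom) and Batf3 (-1.63 to 0.091).

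The replicate numbers are shared between groups, but deviations of same-numbered libraries had correlations of -0.04 to 0.47, with no comparison above 0.1 in all 3 pairs, so they were not taken as pairs. The highest values were those between the LPS- groups, 0.47 for replicate 1 and 0.34 for replicate 2, while replicate 3 had 0.014. With the replicate block, 0 members were called between LPS+ and LPS- tlr4f/f-lysM-cre (Fosl2 had an adjusted p of 0.0138 in edgeR). Between the LPS- groups it ended the call of Fosl2 (2.71, adjusted p = 0.0145 in edgeR) and added Jund (1.02, adjusted p = 0.00776) and Atf3 (1.55, adjusted p = 0.00367), and LPS+ against LPS- tlr4f/f was 0.19 for Fos and 0.060 for Fosl1.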
